A study of Homo sapiens with 2 samples.

Results

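The genes described here are 9 genes of nucleolar proteins, several of which carry small nucleolar RNA (snoRNA) genes in their introns: NCL, NPM1, FBL, NOP56, NOP58, DKC1, NOLC1, GNL3 and TCOF1. They were taken as a list by name, and every IGF2BP3 peak that overlapped the GENCODE 44 span of one of them on hg38 by at least 1 bp was kept. The 9 genes, out of 20046 protein-coding genes, held 12 of the 21142 peaks of replicate 1 and 15 of the 20799 peaks of replicate 2, 27 peaks in all. IGF2BP3 binds RNA and was studied as a reader of N6-methyladenosine, and its sites on RNA were mapped by LACE-seq (linear amplification of cDNA ends and sequencing), in which UV-crosslinked RNA is pulled down with an antibody and sequenced. The series was made from OE-19, an established cell line of an adenocarcinoma of the esophagogastric junction, grown without any knockdown, transgene or drug that the labels name. Both samples belong to a single group, so values are set side by side for the 2 replicates, and for these genes and the rest of the peak lists. The labels do not say whether the replicates came from separate cultures, so the spread between them may be technical. Input and IgG libraries were not analysed here, and a peak is bound RNA in amounts that also follow how much of the RNA the cell holds, which these files do not measure.

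The nucleolus is where ribosomal RNA is transcribed, modified and assembled with ribosomal proteins. Both families of snoRNA guide modifications: box C/D snoRNAs pair with ribosomal RNA to place methyl groups on ribose, and H/ACA snoRNAs place pseudouridines. Most human snoRNAs lie inside introns of protein-coding genes and are cut out of the spliced intron, so one primary transcript gives an mRNA and a snoRNA. Fibrillarin (FBL) is the methyltransferase of the box C/D particle, NOP56 and NOP58 are its scaffold proteins, and dyskerin (DKC1) is the pseudouridine synthase of the H/ACA particle. Nucleolin (NCL) and nucleophosmin (NPM1) are among the most abundant nucleolar proteins, NOLC1 is a chaperone of snoRNA particles, treacle (TCOF1) acts in ribosomal RNA transcription, and nucleostemin (GNL3) is a GTPase of ribosome assembly.

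GENCODE places 20 snoRNA genes inside introns of 5 of the 9 genes, on the strand of the host: 3 in NCL, 5 in NOP56, 4 in NOP58, 2 in DKC1 and 6 in GNL3. FBL, NPM1, NOLC1 and TCOF1 have none. Peaks touched 7 of the 20, and the sequences of these 7 are shown because the edge of the peak falls inside nearly all of them. Each is read from hg38 on the strand of the gene, 5′ to 3′, and the capitals mark the bases under the peak of the replicate named.

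SNORD82 in NCL, replicate 1 (chr2:231460371-231460440, minus strand): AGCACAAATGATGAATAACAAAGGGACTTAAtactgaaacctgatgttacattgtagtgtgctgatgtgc
SNORD82 in NCL, replicate 2: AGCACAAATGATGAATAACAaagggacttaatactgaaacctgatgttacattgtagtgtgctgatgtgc
SNORA75 in NCL, replicate 1 (chr2:231455800-231455936, minus strand): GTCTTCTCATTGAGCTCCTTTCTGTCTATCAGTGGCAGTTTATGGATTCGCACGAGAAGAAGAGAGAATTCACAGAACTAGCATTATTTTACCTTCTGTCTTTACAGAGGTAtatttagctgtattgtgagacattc
SNORA75 in NCL, replicate 2: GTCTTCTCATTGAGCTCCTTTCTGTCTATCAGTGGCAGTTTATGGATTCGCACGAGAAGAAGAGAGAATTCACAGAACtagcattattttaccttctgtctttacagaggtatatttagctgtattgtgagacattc
SNORD56 in NOP56, replicate 1 (chr20:2656624-2656694, plus strand): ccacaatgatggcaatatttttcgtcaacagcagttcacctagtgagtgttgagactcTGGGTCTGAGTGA
SNORD57 in NOP56, replicate 1 (chr20:2656939-2657010, plus strand): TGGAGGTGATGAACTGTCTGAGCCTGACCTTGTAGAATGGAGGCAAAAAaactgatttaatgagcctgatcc
SNORD57 in NOP56, replicate 2: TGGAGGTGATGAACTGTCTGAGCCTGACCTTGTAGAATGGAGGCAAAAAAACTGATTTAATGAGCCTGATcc
SNORD11 in NOP58, replicate 1 (chr2:202293051-202293134, plus strand): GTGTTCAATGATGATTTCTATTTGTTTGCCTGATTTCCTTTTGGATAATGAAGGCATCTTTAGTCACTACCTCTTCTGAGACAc
SNORD70B in NOP58, replicate 2 (chr2:202278108-202278192, plus strand): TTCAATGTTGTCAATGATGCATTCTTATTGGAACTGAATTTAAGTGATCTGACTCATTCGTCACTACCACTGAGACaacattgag
SNORD69 in GNL3, replicate 2 (chr3:52692736-52692812, plus strand): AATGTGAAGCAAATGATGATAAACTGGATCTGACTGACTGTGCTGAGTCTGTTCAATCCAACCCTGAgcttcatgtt

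In 6 of the 7 genes the capitals begin at base 1 and stop before the 3′ end of the gene. SNORD56 is the exception, where the peak of replicate 1 covers the last 13 of 71 bases and that of replicate 2 all 71. SNORD82 was covered over its first 31 bases in replicate 1 and 20 in replicate 2, and SNORA75 over its first 112 and 78 of 137. No 31-mer of any of these 7 snoRNA genes occurs at a second place in hg38, so reads of that length would have a single best place there.

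The peaks were sorted into 2 kinds, by a rule that puts overlap of a snoRNA gene before overlap of an exon. Of the 27, 9 overlapped an intronic snoRNA gene (4 of 12 in replicate 1 and 5 of 15 in replicate 2, 33.3% of each), 18 overlapped exons and no snoRNA gene (8 and 10), and 0 lay over introns only. Among all other peaks in protein-coding genes, 0.38% in replicate 1 and 0.616% in replicate 2 overlapped an intronic snoRNA gene, 92.9% and 94% overlapped exons and no snoRNA gene, and 6.69% and 5.4% lay over introns only. Most of those genes carry no snoRNA gene, whereas 5 of these 9 do, so the larger snoRNA share follows from how the list was made. Of the 9 peaks over snoRNA genes, 8 also overlapped an exon of the canonical transcript, and the remaining 1, in GNL3, overlapped none. Over all annotated transcripts, the peaks at SNORA75 in NCL and those of NOP56 lay wholly within exons, so the 2 kinds are not separate there. The summit lay inside a snoRNA gene in 3 of the 27 peaks, in coding sequence in 8, in a UTR in 5, in an exon of another transcript of the gene in 4 and in an intron in 7.

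**Figure D1:**
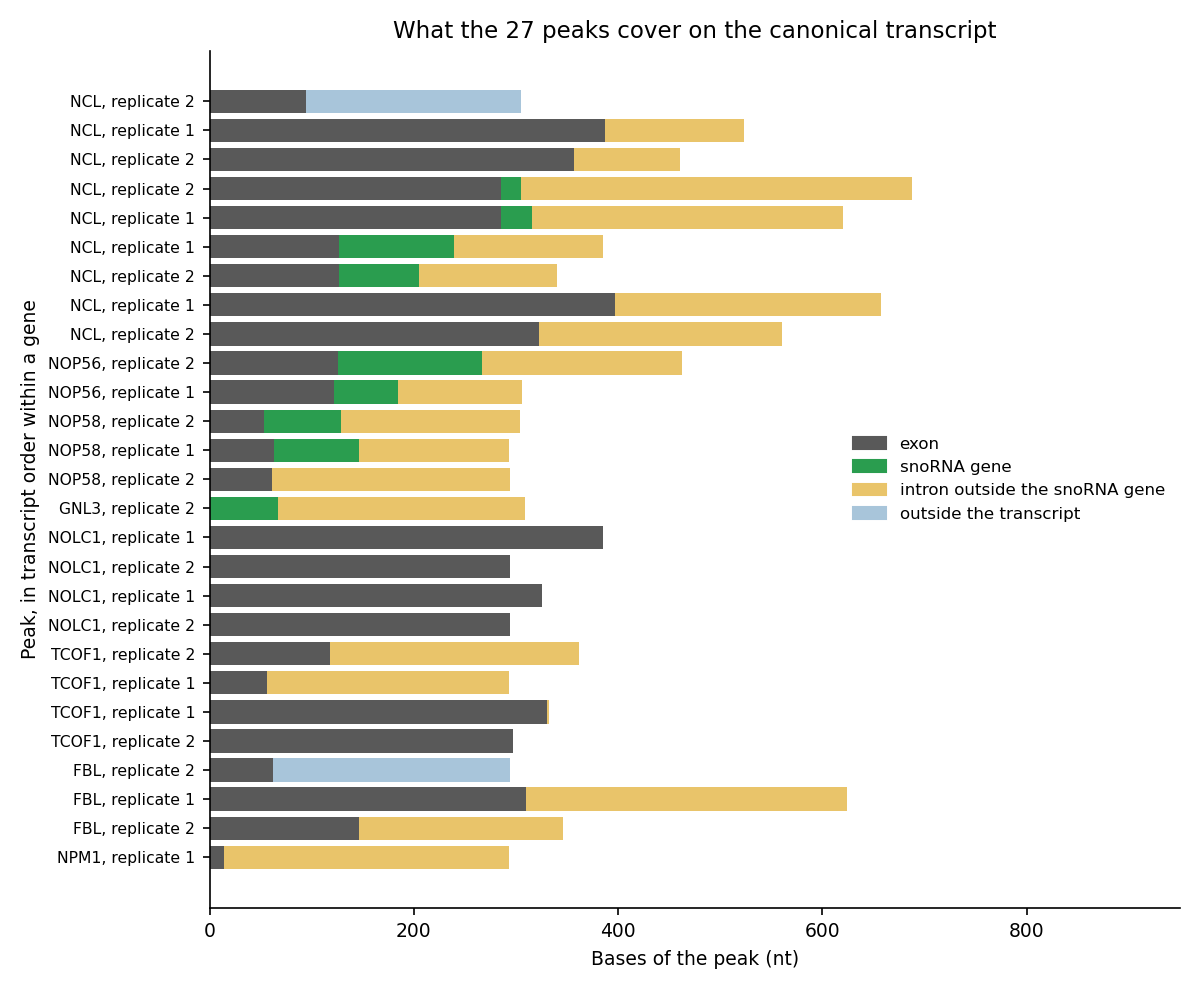
Bases of each of the 27 peaks, in nt on the x axis, split into exon of the canonical transcript, intronic snoRNA gene, remaining intron and sequence outside the transcript, with 1 bar for each peak in transcript order. The NOLC1 bars are all exon, the NPM1 bar holds 14 exon bases and 279 intron bases, and green snoRNA bases appear in 9 bars, of NCL, NOP56, NOP58 and GNL3.

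Depth behind each peak is given as the pileup, the peak caller's count of reads at the summit. It could be recovered as a whole number for every peak of both lists. Whether the caller extended reads before it counted them could not be checked. A pileup therefore need not equal the reads that cross the summit, and a peak edge need not be the end of a read. The total number of reads per library is unknown, so pileups are not compared between replicates. Over all peaks the median pileup was 22 reads in both lists and the median fold enrichment over the local background was 6.89 in replicate 1 and 7.13 in replicate 2. The peaks of the 9 genes had median pileups of 30.5 and 23 reads, but median folds of 6.69 and 6.13, at percentiles 45.6 and 29.1 of their own lists. Ranked by the deposited −log10 q in place of fold, their medians were at percentiles 59.7 and 62.8. The position above the middle by q rested on NCL, which holds 4 and 5 of the peaks, with median pileups of 79.5 and 53 reads and percentiles by q of 93.2 and 76.2. Without NCL the peaks of the other genes had median pileups of 19.5 and 13.5 reads, below the list median, and lay at percentiles 26.1 and 28.4 by q and 45.6 and 35.3 by fold. Peaks over snoRNA genes had median pileups of 54 and 50 reads with folds of 6.03 and 6.46, and peaks over exons only had 29 and 17 reads with folds of 7.02 and 5.89. NCL holds the deepest peaks of both classes: in NCL the classes had medians of 79.5 and 77 reads in replicate 1 and 74.5 and 46 in replicate 2, and in the other genes 21.5 and 19.5 reads in replicate 1 (2 and 6 peaks) and 37 and 12 in replicate 2 (3 and 7 peaks).

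**Figure D2:**
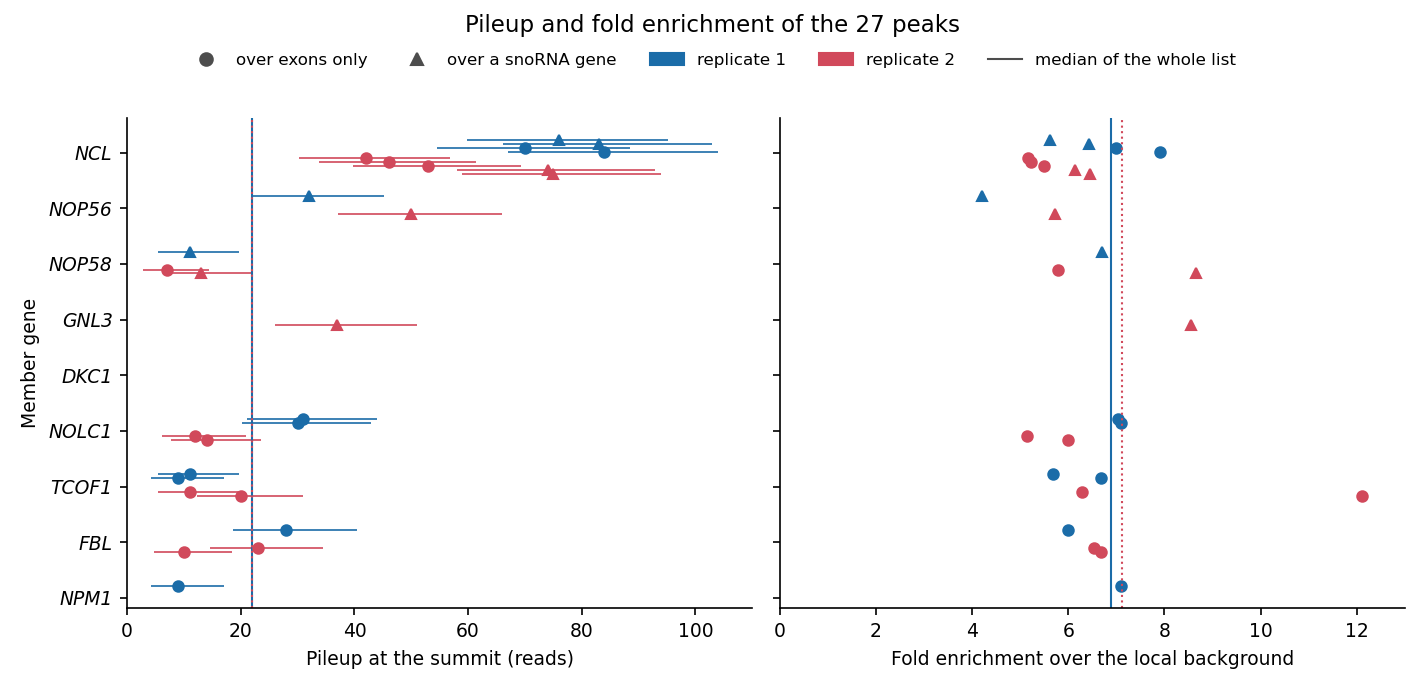
Pileup at the summit in reads (left, bars are exact 95% Poisson intervals) and fold enrichment (right) of each peak, by gene and replicate, with triangles for peaks over a snoRNA gene, circles for peaks over exons only and vertical lines for the medians of the whole lists (solid, replicate 1, and dotted, replicate 2). NCL peaks sit between 42 and 84 reads, to the right of the median of 22, while their folds lie between 5.17 and 7.90, and 1 TCOF1 peak stands out in fold at 12.1.

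NCL had more peaks than any other gene of the list, 4 in replicate 1 and 5 in replicate 2, and 4 of them recurred between the replicates. Nucleolin binds pre-ribosomal RNA and also many mRNAs, and its gene lies on the minus strand of chromosome 2 (chr2:231453531-231483641, ENSG00000115053.17, 14 exons in the canonical transcript). In transcript order, the first recurrent pair lay over exon 3, with 387 and 357 coding bases and the end of the intron before it, with the peak of replicate 1 at chr2:231461631-231462153 and that of replicate 2 at chr2:231461661-231462121. Its fold was 7.90 in replicate 1 (pileup 84 reads, 95% Poisson interval 67.0 to 104) and 5.50 in replicate 2 (53 reads, 39.7 to 69.3), a mean of 6.70 ± 1.70 (SD, n = 2), and the summits were 10 bp apart. This is the deepest site of the list in replicate 1.

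The next pair in NCL ran over exons 4 and 5 and on into SNORD82, a box C/D gene that starts 37 nt after exon 5. The peaks were at chr2:231460410-231461029 and chr2:231460421-231461108, with folds of 6.44 and 6.13 (6.29 ± 0.22, SD, n = 2), pileups of 83 and 74 reads and summits at the same base. Each held 285 coding bases but only 31 and 20 bases of SNORD82, and the summit lay just before exon 4 of the canonical transcript, in a stretch that another NCL transcript keeps as exon. Of the 31-mers in the peak of replicate 2, 13.1% occur elsewhere in the genome, against 1.53% in replicate 1, whose peak is shorter at the upstream side.

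The third pair covered the whole of exon 12 and the start of SNORA75, an H/ACA gene that begins 73 nt after that exon. The peaks, at chr2:231455825-231456209 and chr2:231455859-231456198, had pileups of 76 and 75 reads and folds of 5.63 and 6.46 (6.04 ± 0.59, SD, n = 2). Both summits lay in the coding bases of exon 12, 18 bp apart, and not in the snoRNA gene. The fourth pair covered exon 13 and only the start of exon 14, with the stop codon, and left most of the 3′ UTR outside. Its peaks were at chr2:231455095-231455751 and chr2:231455169-231455728, with folds of 7.0 and 5.17 (6.08 ± 1.30, SD, n = 2) and pileups of 70 and 42 reads. NCL was thus bound along coding exons as well as beside its snoRNA genes, and the other snoRNA gene of NCL, SNORD20, lay under no peak of either list.

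Replicate 2 alone had a peak over the first exon of NCL, at chr2:231464391-231464695, with a fold of 5.22 and 46 reads (33.7 to 61.4). Of its 305 bases, 94 lay in exon 1 and 211 upstream of the start of the canonical transcript. Its summit lay in an exon of another NCL transcript. No peak of replicate 1 touched it.

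NOP56, a scaffold protein of the box C/D particle, is itself the host of 5 snoRNA genes, and 2 of them, SNORD56 and SNORD57, lie on either side of exon 10. A single peak in each replicate spanned this stretch, at chr20:2656682-2656987 in replicate 1 and chr20:2656546-2657008 in replicate 2. The folds were 4.22 and 5.72 (4.97 ± 1.07, SD, n = 2), and the pileups were 32 reads (21.9 to 45.2) and 50 reads (37.1 to 65.9). The fold of replicate 1 is the lowest of the 27 peaks. Both summits lay inside SNORD57, 16 bp apart, so SNORD57 was the only snoRNA gene of the list with a summit inside it in both replicates. SNORD110, SNORA51 and SNORD86, in earlier introns of NOP56, lay under no peak.

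NOP58, the partner of NOP56 in the particle, had a peak overlapping a snoRNA gene in both replicates, but at different snoRNA genes. Replicate 1 had 1 peak, at chr2:202292841-202293133 (fold 6.70, 11 reads, 5.49 to 19.7), which held 63 coding bases and the first 83 of the 84 bases of SNORD11. Replicate 2 had a peak in an earlier intron, at chr2:202277880-202278183 (fold 8.66, 13 reads, 6.92 to 22.2), over 53 coding bases and the first 76 of the 85 bases of SNORD70B. Neither summit lay inside the snoRNA gene: that of the SNORD11 peak lay in the intron and that of the SNORD70B peak in coding sequence. These pileups are below the list median, and neither peak overlapped one of the other replicate. A second peak of replicate 2, at chr2:202302688-202302981 (fold 5.79, 7 reads), lay over exon 14 and the intron before it, where an antisense non-coding gene also lies. The peaks carry no strand, so reads of NOP58 and of that gene cannot be told apart there. SNORD70 and SNORD11B lay under no peak.

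GNL3 hosts 6 annotated snoRNA genes, 2 of which overlap each other and have no symbol, and 1 of the 6 lay under a peak. The peak, found in replicate 2 only at chr3:52692494-52692802, had a fold of 8.56 and 37 reads (26.1 to 51.0). It held 67 of the 77 bases of SNORD69, no base of any GNL3 exon, and its summit lay in SNORD69. It was the only peak of the 27 with no exon base. Of its 31-mers, 31.2% occur elsewhere in the genome, none of them in SNORD69 itself. SNORD19, SNORD19B, SNORD19C and both genes without a symbol lay under no peak.

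DKC1, on chromosome X, had no peak in either list, over 15 exons with 2469 nt of mRNA or over its 2 H/ACA genes, SNORA36A and SNORA56. No 31-mer of its mRNA occurs elsewhere in the genome. Without a peak the files hold no value for DKC1, so low binding and little of this RNA in the cells cannot be told apart.

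**Figure D3:**
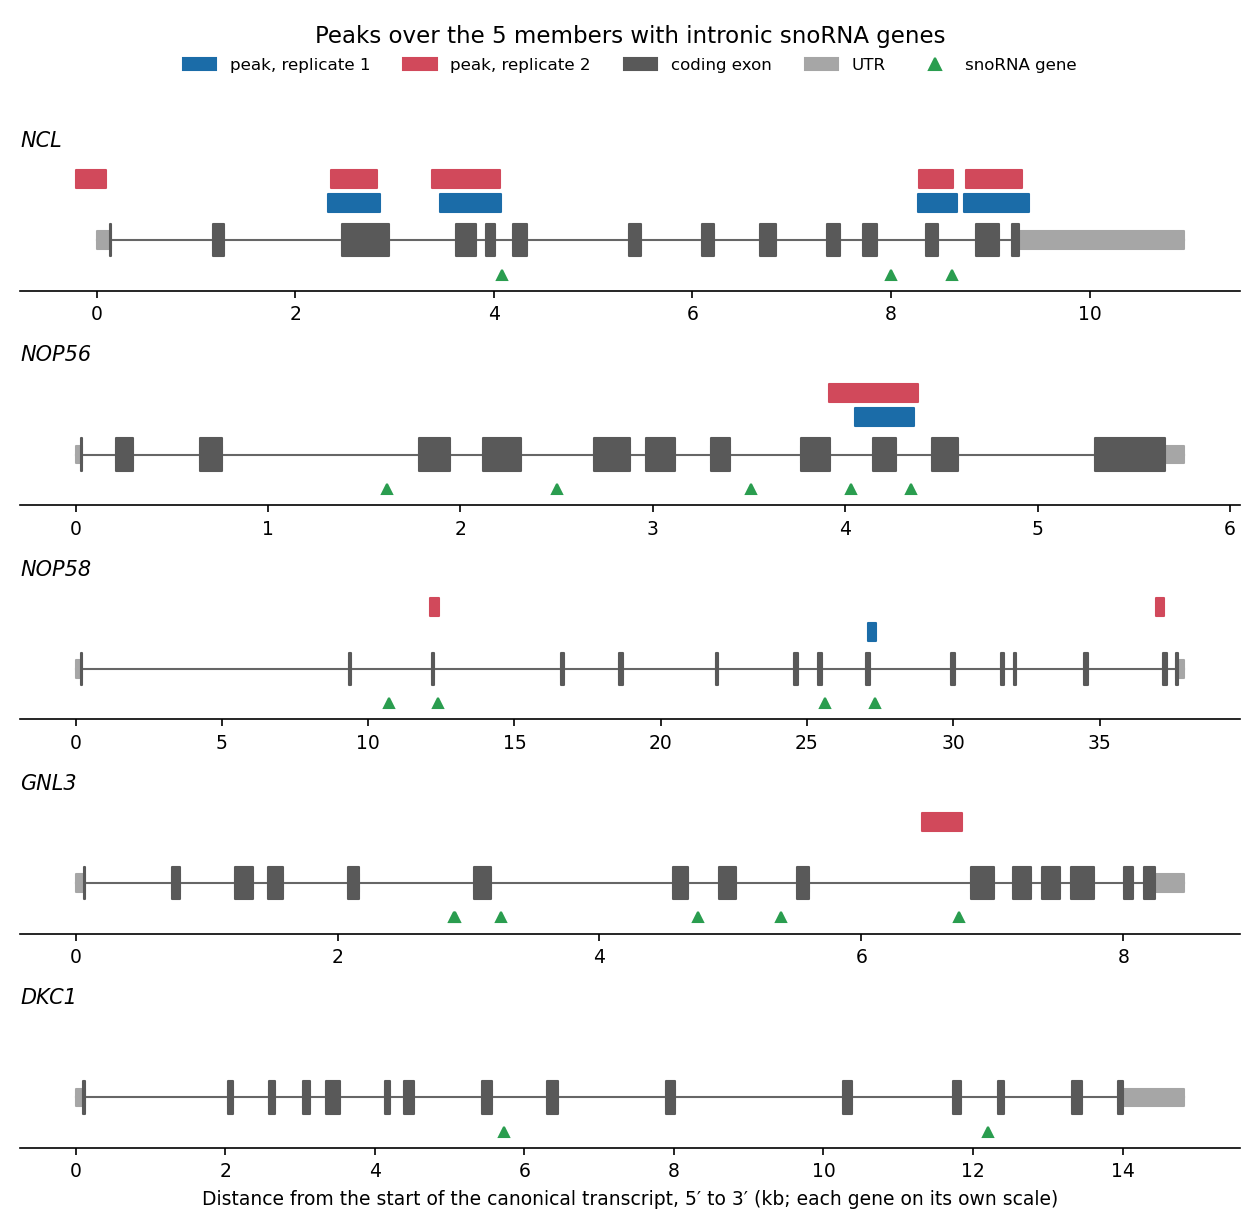
Maps of NCL, NOP56, NOP58, GNL3 and DKC1 from the start of the canonical transcript, with the distance in kb on the x axis and a scale of its own for each gene. Dark boxes are coding exons, light boxes UTRs, green triangles snoRNA genes (the 2 overlapping genes of GNL3 share a triangle), and blue and red bars the peaks of replicates 1 and 2. NCL shows 4 places with both colours and NOP56 1, NOP58 and GNL3 show bars of a single colour at each place, and DKC1 shows none.

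Counted over snoRNA genes, 5 of the 20 lay under a peak of replicate 1 and 6 under a peak of replicate 2, against 28.1% and 44.1% of the 295 intronic snoRNA genes of other protein-coding hosts. Peaks of both lists touched 4 of the 20, namely SNORA75, SNORD82, SNORD56 and SNORD57, which is 20% (95% Wilson interval 8.07 to 41.6, counting error only), against 26.4% of the 295. The members' share was thus near that of hosts in general. It was below that of the 28 ribosomal protein hosts, where 35 of 60 snoRNA genes (58.3%, 45.7 to 69.9) lay under peaks of both lists, and close to that of the remaining 193 hosts, with 43 of 235 (18.3%, 13.9 to 23.7). Among hosts with a recurrent peak anywhere in the gene, 4 of 8 snoRNA genes of NCL and NOP56 and 78 of 186 of other hosts (41.9%) were covered in both. This filter kept all 4 and all 78 covered genes and removed only genes that were not, so it raises both shares by construction. NOP56 passes it only through the peaks over its snoRNA genes. These shares come with no test, since snoRNA genes of one host often lie under a single peak. Box C/D genes made up 3 of the 4, out of 14 named SNORD, and H/ACA genes 1, out of 4.

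**Figure D4:**
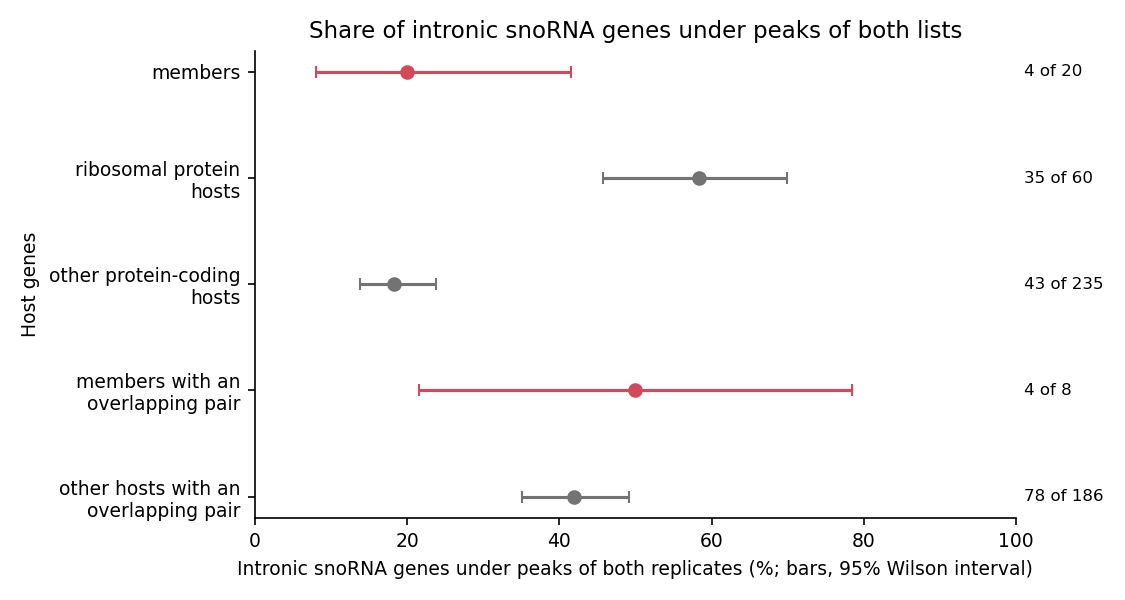
Share in percent of intronic snoRNA genes under peaks of both replicates, by kind of host gene, with 95% Wilson intervals and the counts at the right. The members, at 20%, lie near the 18.3% of other protein-coding hosts and below the 58.3% of ribosomal protein hosts. The 2 members with a recurrent peak lie at 50%, and other hosts with one at 41.9%. The intervals take snoRNA genes as independent, although those of one host often lie under a single peak.

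By the count of snoRNA genes under peaks of both lists, the 5 hosts outside the list most like NCL and NOP56, at 2 each, were EIF4A2 with 4 of 5, RPL13A with 4 of 4, HSPA8 and RPL17 with 3 of 3 each, and CCNB1IP1 with 2 of 2, the last ahead of other hosts with 2 by name only. EIF4A2 is a translation initiation factor, RPL13A and RPL17 are proteins of the large ribosomal subunit, and HSPA8 is a heat shock cognate chaperone.

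The place of the peak edges was alike in most of the snoRNA genes. Of the 11 cases in which a peak met a snoRNA gene of these hosts, 9 had the downstream edge of the peak inside the gene, between 1 and 59 nt before its 3′ end, while the upstream edge lay 210 to 668 nt before its 5′ end. The other 2 were both at SNORD56, where the peak ran on through exon 10 to SNORD57 and passed the 3′ end of SNORD56 by 293 and 314 nt. In other hosts the upstream edge lay a median of 239 nt (n = 83) and 244 nt (n = 130) before the snoRNA gene in replicates 1 and 2, and the downstream edge lay a median of 4 and 13.5 nt inside it, with the peak ending inside the gene in 57.8% and 74.6% of these pairs of a peak and a snoRNA gene. The members, with 4 of 5 and 5 of 6 ending inside, had the same one-sided shape. The shape was not particular to snoRNA genes either. Of all peaks over a single internal exon (7215 and 6610), 93.5% and 92.9% reached farther into the upstream than the downstream side, with a median of 198 and 193 nt of upstream intron and an end 59 and 60 nt before the end of the exon. Beyond transcript ends, 1620 and 3401 peaks ran past an annotated start (median 186 and 196 nt), against 107 and 95 past an annotated end. The long side of the members' peaks was thus the one that most peaks over a single internal exon had, and the cause was not tested.

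**Figure D5:**
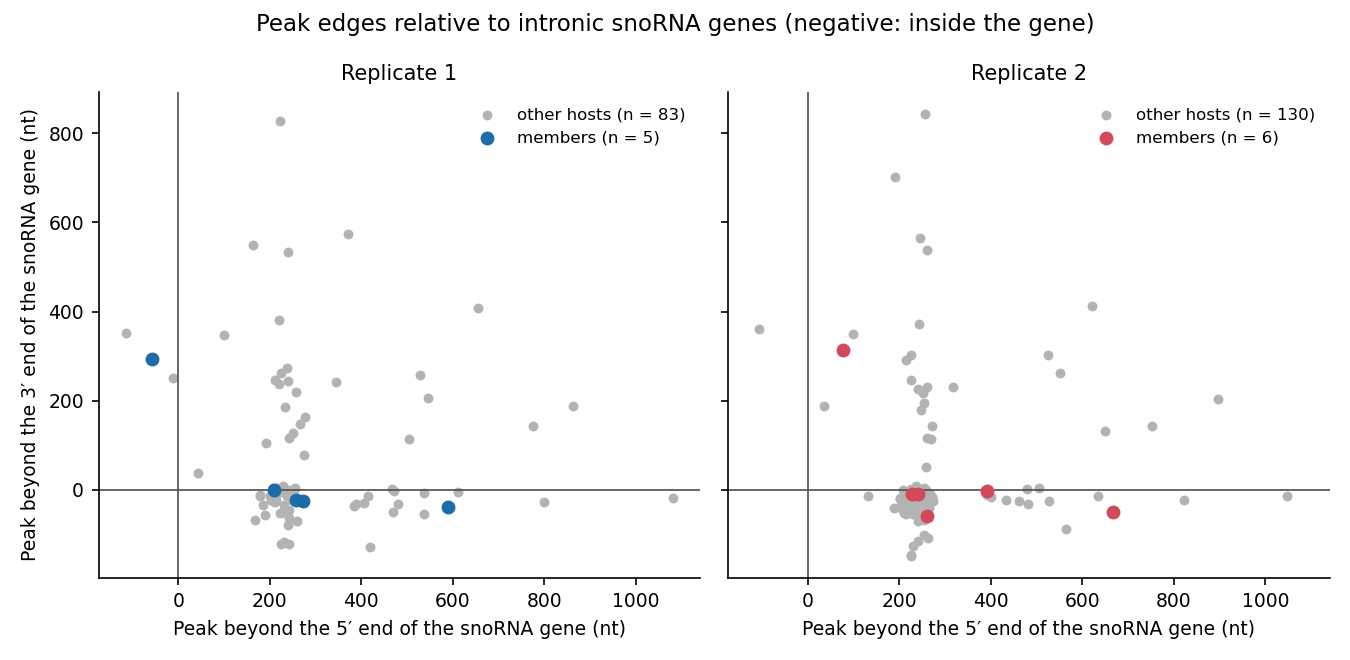
Distance in nt by which each peak passes the 5′ end (x axis) and the 3′ end (y axis) of an intronic snoRNA gene, with negative values inside the gene, for members (coloured) and other hosts (grey) in each replicate. Most points lie to the right of 0 and near or just below the horizontal line, and the members have 1 point in each replicate far above it, at 293 and 314 nt, both of SNORD56.

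Box C/D genes carry a box C, often TGATGA, near the 5′ end and a box D, CTGA, near the 3′ end. TGATGA and CTGA were searched on the gene strand only, over 14 box C/D genes of the members and 105 of other hosts. TGATGA was found in 57.1% of the first and 66.7% of the second, and CTGA in 100% and 92.4%. In SNORD57, TGATGA starts at base 7 and the last CTGA ends at base 69, and the peak of replicate 2 ended at base 70, whereas that of replicate 1 ended at base 49. In SNORD69 the last CTGA ends at base 67, the last base of the peak. In SNORD70B it ends at base 73 and the peak at base 76, and in SNORD11 at base 79 and the peak at base 83. In these 4 cases the peak therefore ended 0 to 4 nt past the last CTGA. Counted as an edge 0 to 5 nt past the last CTGA, this held for 1 of 4 member cases in replicate 1 and 3 of 5 in replicate 2, against 10.6% of 47 and 12.5% of 64 cases in other hosts, where most edges lay before the end of the CTGA (19 and 37) or over 50 nt past it (17 and 15). By the median the members were nearer in replicate 2 but not in replicate 1: the edge lay at -8 and 1 nt from the end of the last CTGA in the members and at 2 and -3.5 nt in other hosts, with negative values before it. The window was chosen after the members' values were seen, so the counts are a description. The SNORD11 peak also has the smallest width of its list, 293 bp, which fixes 1 edge once the other is given. In SNORD82 the peaks ended 34 and 45 nt before the end of the last CTGA, and in SNORA75 they ended at bases 112 and 78, before the ACA that starts at base 132.

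NOLC1 and TCOF1, which host no snoRNA gene, had 2 recurrent sites each, all 4 over exons. NOLC1 lies on chromosome 10 (chr10:102152176-102163871), and its first site was wholly coding, within exon 10, at chr10:102160585-102160969 in replicate 1 and chr10:102160659-102160952 in replicate 2. Folds were 7.04 and 5.14 (6.09 ± 1.34, SD, n = 2), pileups 31 reads (21.1 to 44) and 12 reads (6.20 to 21.0), and the summits lay 5 bp apart. The 81 nt around each summit, read 5′ to 3′ and with GGAC in capitals, are shown because it is the only coding summit of the list with GGAC close by.

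NOLC1 exon 10, replicate 1 (chr10:102160737-102160817, plus strand): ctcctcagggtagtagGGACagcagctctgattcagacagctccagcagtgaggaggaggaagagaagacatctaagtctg
NOLC1 exon 10, replicate 2 (chr10:102160732-102160812, plus strand): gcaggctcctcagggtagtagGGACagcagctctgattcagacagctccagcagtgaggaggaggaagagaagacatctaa

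The NOLC1 protein is known for acidic, serine-rich repeats. The second NOLC1 site lay in the 3′ UTR, in exon 13, at chr10:102163274-102163598 and chr10:102163318-102163611, with folds of 7.09 and 6.0 (6.55 ± 0.77, SD, n = 2) and pileups of 30 and 14 reads. Its summits were 143 bp apart, so the peaks overlapped but their highest points did not coincide. None of the 4 NOLC1 peaks held an intron base.

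TCOF1 encodes treacle and lies on chromosome 5 (chr5:150357629-150400308). Its first site was at exon 3, at chr5:150363876-150364168 in replicate 1 and chr5:150363869-150364230 in replicate 2, with summits 4 bp apart. The fold was 6.68 with 9 reads in replicate 1 (4.12 to 17.1) and 12.1 with 20 reads in replicate 2 (12.2 to 30.9), a mean of 9.39 ± 3.84 (SD, n = 2). The value of replicate 2 is the highest fold of the 27 peaks, at percentile 91.6 of its list, and it rests on 20 reads. Both summits lay in the intron just before the exon, and the peaks held 56 and 118 coding bases. The second site was in the 3′ UTR, in exon 27, at chr5:150399808-150400139 and chr5:150399846-150400142, with folds of 5.68 and 6.28 (5.98 ± 0.42, SD, n = 2) and 11 reads in each.

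FBL and NPM1 had no site that recurred. FBL, on the minus strand of chromosome 19 (chr19:39834458-39846379), had 1 peak in replicate 1, over exons 2 to 4 (chr19:39840291-39840914, fold 5.99, 28 reads), and 2 in replicate 2. Of these, 1 lay over exon 5 (chr19:39839060-39839405, fold 6.53, 23 reads) and 1 at the transcript start (chr19:39846318-39846611, fold 6.68, 10 reads), with 62 exon bases and 232 bases upstream of the annotated start. Coding exons of FBL were thus under a peak in both replicates, but not the same exons. Of the 31-mers in the peak at the start, 76.5% occur at 1 other place in the genome, while no 31-mer of the FBL mRNA occurs elsewhere, so the copied part is the upstream sequence.

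NPM1 had a single peak, in replicate 1, at chr5:171399874-171400166 (fold 7.09, 9 reads, 4.12 to 17.1). It held 14 bases of exon 7 and 279 intron bases, and its summit lay in the intron. NPM1 has many processed copies in the genome: 87.6% of the 31-mers of its mRNA occur elsewhere, at a median of 5 other places, and 13.95% at more than 10. In the other 8 genes the share was 0% in FBL and DKC1 and at most 12.8%, in GNL3. None of the 31-mers of the NPM1 peak occurs elsewhere. The study's methods describe an aligner limit of 10 places, and how reads of the NPM1 exons were placed was not tested. The absence of peaks over its mRNA is therefore not read as absence of binding.

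Of the 9 genes, 8 had a peak in at least 1 list, against 48.5% of all protein-coding genes. The genes were chosen with earlier results of these data known, and RNA amounts were not measured, so this contrast is a description. A pair of overlapping peaks was found in 4 of these 8, NCL, NOP56, NOLC1 and TCOF1, against 63% of the 9709 protein-coding genes with a peak in either list. The members had 9 pairs, 4 of them in NCL. Each pair shared at least 50% of the length of both peaks, and in 6 of the 9 the summits lay within 50 bp of each other. The share by this summit rule was not computed over all peaks, so this count has no background. By peaks, 9 of 12 in replicate 1 (75%) and 9 of 15 in replicate 2 (60%) overlapped the other list, against 60.1% and 61.2% of all peaks. The recurrence of these peaks was thus near that of the lists as a whole. Of the 27 peaks, 7 had the smallest width of their list, 293 bp in replicate 1 and 294 bp in replicate 2 (3 of 12 and 4 of 15 peaks, against 11.9% and 11.6% of all peaks).

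Codons were counted because proteins of this family are known for binding toward the end of mRNAs. Of the 4 genes with a pair, NCL had its stop codon under peaks of both replicates, and the other 3 did not, against 32.1% of other protein-coding genes with a pair. None of the 4 had a start codon under peaks of both, against 25.3% of other genes. The 5-base motif TGGAC and its core GGAC, whose adenosine is the base that N6-methylation modifies, were searched on the gene strand only. GGAC lay within 50 nt of the summit in 1 of 12 peaks of replicate 1 and 5 of 15 of replicate 2, against 29% and 31.8% of all other peaks with a summit in a protein-coding gene. By this window the 2 replicates lay on either side of the background. Over the whole peak, GGAC was found in 6 of 12 and 9 of 15, against 69.9% and 74.8% of the other peaks, and TGGAC in 4 and 5, against 34.8% and 35.9%.

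Other genes of nucleolar function were counted from 5 lists of general knowledge, 90 genes in all. Of these, 71 had a peak in either list, against 48.5% of all protein-coding genes, and 44 had a recurrent pair. The lists were written with earlier results of these data known, and RNA amounts were not measured, so this contrast is a description. The pairs make 62.0% of those with a peak, near the 63% of all protein-coding genes with a peak. With summits within 50 bp of each other, 30 of the 90 had a pair, a count without a background, since this rule was not applied to all genes. The counts of pairs below are over all listed genes, for which the background is 6120 of 20037 protein-coding genes. Of the 8 genes of box C/D particle core and assembly, 5 had a pair. SNU13, which binds the kink-turn of these snoRNAs, had folds of 9.32 and 10.4 with 84 and 72 reads, and the assembly factors ZNHIT3 (10.3 and 9.61) and ZNHIT6 (12.4 and 8.50) followed. The folds of these 3 genes were above those of the NOP56 pair in both replicates. They were picked as the highest of their list, however, and the NOP56 pair holds the lowest fold of the member peaks. A fold also depends on the local background, 6.83 and 7.91 reads at the NOP56 peaks of replicates 1 and 2, so this is no ranking of binding.

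Of the 5 H/ACA genes, 3 had a pair although DKC1 had no peak. NOP10, a small core protein that contacts dyskerin, had folds of 16.3 and 14.6 with 52 and 44 reads, at percentile 96.6 or above in both lists. The assembly chaperone SHQ1 (6.11 and 6.26) was in the range of the members, and the core protein NHP2 (4.80 and 5.07) lay below all member peaks in replicate 2. Among 50 genes of pre-ribosome processing and assembly, 23 had a pair and 12 no peak, led by DCAF13 (14.8 and 16.1), RRP1B (12.9 and 12.1) and UTP4 (16.5 and 11.5).

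For RNA polymerase I, 7 of 14 genes had a pair, led by POLR1D (8.64 and 8.92), POLR1C (7.77 and 8.37) and POLR1A, the largest subunit (7.70 and 9.24). Among 13 other nucleolar protein genes 6 had a pair, led by RSL1D1 (10.5 and 12.4), NOL7 (11.4 and 9.87) and NOP53 (6.74 and 7.29). The named genes are the 3 of each list whose pair ranked highest by the lower of its percentiles in the 2 replicates, so they stand high in their lists by choice. As a check of the cell type, all 6 epithelial and OE-19 marker genes had a recurrent pair, and none of 6 marker genes of blood, stromal or endothelial cells had one, with PTPRC and COL1A1 each under a peak of 1 list and CD3E, COL3A1, PECAM1 and CDH5 under none.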

How the data were processed

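IGF2BP3 LACE-seq of OE-19 cells was analysed from the 2 samples of a single group, as numbered in the labels. The study's methods name Bowtie (after removal of pre-rRNA reads, hg38) and Piranha, whereas the submitters' processing notes name fastp, HISAT2, MACS2 and hg38, with no versions. Which of these made the lists is not settled here; the deposited files have the narrowPeak layout. Peaks were called per replicate, with no strand.

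The authors deposited, for each peak, a fold (the ratio of summit reads to local background) and a p-value and a q-value as −log10. The lowest −log10 q was 2.18 and 2.15. Start, end and summit positions were used as deposited and are given 1-based. The total reads per library are unknown. The pileup is the whole number that gives both the fold, as pileup plus 1 over background plus 1, and the p-value under a Poisson distribution (tolerance 0.001). It was found for 21142 of 21142 and 20799 of 20799 peaks. Intervals are exact Poisson or Wilson intervals at 95% and cover counting error only, since reads without molecular identifiers are not independent molecules. As a check of the code, 100% of 1689 pileups simulated under this same model were recovered. Of 1152 real peaks of replicate 1 set against slightly shifted copies, 100% were found to overlap. Neither check bears on how the caller counted or extended reads.

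Python 3.11.15, numpy 2.4.6, pandas 2.3.3 and scipy 1.17.1 were used. Overlap counts from 1 bp. Peaks were placed on all GENCODE 44 transcripts, and exon numbers and bases by class are those of the Ensembl canonical transcript. A snoRNA gene counts as intronic when it lies inside an intron on the strand of its host. Sequences and 31-mer counts are from hg38. With 2 samples and no control, no test over samples can be made, and values are set beside the same value over all peaks or genes. All 9 members and their snoRNA genes are named, with up to 3 genes of each pathway list by the lower of their within-list fold percentiles, and 5 hosts by snoRNA genes under peaks of both lists. The members and lists were chosen with earlier results of these data known. Alternatives changed the peak threshold (−log10 q of at least 5), overlap rule, placement, transcripts, motif window, measure of strength and replicates used.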

Additional observations from a re-analysis of the deposited data

How the results depend on the processing

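The 10 results were recomputed under 13 settings, which gave 45 alternative values, 38 of them within the spread between replicates or within 1.5 times the main count. Of the 38, 18 come from 1 replicate alone. Where the result is a mean of 2, such a value lies within 1 SD by construction. Where the result is a count over both lists, it has no SD, and the count from a single list no longer asks for both replicates. Neither kind says anything about stability. The stricter threshold (−log10 q of at least 5) removed none of the 27 peaks. The member results under it therefore equal the main ones by construction and are no sign of stability either. When summits had to lie within 50 bp, the share of member peaks shared between lists was 45.0% in place of 67.5% (means of the 2 replicates). Whether the lists as a whole drop as much under this rule was not computed. The number of snoRNA genes under peaks of both lists was 4 by any overlap, 1 (SNORD57) when the summit had to lie in the snoRNA gene and 0 when the whole gene had to lie in the peak. The median percentile of the member peaks was 37.4 by fold and 61.3 by −log10 q. With either replicate left out, 7 members had a peak in the remaining list, in place of 4 with a pair. The share of member peaks with GGAC was 20.8% within 50 nt of the summit and 55.0% over the whole peak. With a single list a pair is not needed, which raises that count by construction; the cause of the other changes was not tested. No paired analysis was possible because there is a single group. All peaks of NPM1, NOP58 and TCOF1 rest on 7 to 20 reads, as do 1 FBL and 2 NOLC1 peaks of replicate 2, and a site missing from 1 list is not evidence that it was not bound.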
